A study of Homo sapiens
Mus musculus with 6 samples.

Results

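Interferon response genes are genes whose RNA rises when a cell meets interferon or senses foreign nucleic acid. A list of 48 of them was followed by name in mouse C2C12 myoblasts, out of 23433 genes in the mouse table, and each of the 48 was found there once. Interferons bind receptors at the cell surface, the receptor-bound kinases JAK1 and TYK2 phosphorylate STAT2 and other factors, and STAT2 acts with IRF9 to switch on the target genes. The products detect viral nucleic acid, degrade RNA, block translation, hold back budding particles and tag proteins with ISG15, and several of them are themselves sensors or transcription factors that feed the same pathway. C2C12 is a skeletal muscle precursor line, a cell outside the immune system that carries the interferon receptors.

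RNA was sequenced from 6 co-culture wells, 1 for each combination of a mouse and a human line. The mouse cells were the C2C12-control line or the C2C12-Notch1 line, which carries full-length Notch1 (C2C12-FLNotch1 in the labels) and was kept under puromycin. The human cells were HEK-293-Flp-In kidney cells: HEK-control, HEK-Jag1WT, which presents the Notch ligand Jag1, or HEK-Jag1Ndr, which presents the Nodder form of Jag1, the latter pair kept under hygromycin. All wells were treated alike: after 8 h of settling, the C2C12 cells took up 1.6 ug of the plasmid pcDNA5 by lipofection, the HEK cells were added 18 h later, and both were lysed after 6 h together, so the C2C12-control wells hold transfected cells too. The sources used here do not say whether a line is 1 clone or which promoter drives Notch1 or Jag1. The introduced Notch1, the selection and the separate history of the C2C12-Notch1 line cannot be told apart. Values for 3 wells are given in the order HEK-control, HEK-Jag1WT, HEK-Jag1Ndr.

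Mouse gene reads ranged from 2263529 (C2C12-Notch1 with HEK-Jag1WT) to 7965231 (C2C12-control with HEK-Jag1Ndr) per well, and human gene reads from 4081452 to 10292878. Notch1 stood at 9.06 to 20.4 RPKM in the C2C12-control wells and at 158 to 179 in the C2C12-Notch1 wells, and Jag1 in the mouse table at 5.00 and 9.80 beside HEK-control against 1448 to 3768 beside the Jag1 lines, as the labels say. Levels between genes are compared in RPKM, which divides a gene's reads by its length in kilobases and scales each species to 1000000 reads. All 7 myoblast markers found were expressed in every well, and summed to 4153 to 4667 RPKM in C2C12-control against 4081 to 4336 in C2C12-Notch1. Most of the sum was Vim, at 2738 to 3065 RPKM, and single markers differed. By edgeR, the log2 differences, C2C12-Notch1 minus C2C12-control, were 0.94 for Myod1, 0.65 for Cdh15, 0.24 for Chrna1 and -0.61 for Des. Those of Vim, Myf5 and Itga7 lay between -0.14 and -0.07. Of 11 leukocyte and macrophage markers found, 9 were under 1 RPKM in every well and 3 (Emr1, Itgam and Tyrobp) had no reads at all. Their summed level was 17.8 to 24.6 RPKM in C2C12-control against 6.995 to 10.4 in C2C12-Notch1. Most of it was Cd14, at 20.4, 15.1 and 21.1 against 6.29, 5.77 and 7.13 RPKM. Cd68 was at 3.85, 2.25 and 1.74 against 1.72, 0.659 and 2.32 RPKM. Of 6 fibroblast markers, Thy1 and Lum had no reads, Col3a1 was high in both lines and Col1a1 was at 199, 205 and 203 against 26.3, 25.5 and 23.7 RPKM. Among 6 HEK markers in the human table, KRT18 and LIN28B were high, SALL4 was under 1 RPKM and DPPA4 had no reads.

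Nearly all of the interferon response genes were lower in the C2C12-Notch1 line than in the C2C12-control line beside every HEK partner, by amounts that differed widely between genes. The 48 genes together took 5189, 5012 and 5941 of every 1000000 mouse reads in the C2C12-control wells and 581, 547 and 567 in the C2C12-Notch1 wells, a mean of 5380 ± 493 against 565 ± 17.3 (SD, n = 3), or 9.52-fold. By edgeR's quasi-likelihood test over all 6 wells, with a term for the HEK line and Benjamini-Hochberg adjustment over the 11365 genes tested, 47 of the 48 were lower in C2C12-Notch1 and 1, Aim2, was higher. Among all genes tested the same test called 29.4% lower and 28.4% higher, so a call in this comparison is common. Of the 48 genes 33 were lower by over 10-fold, against 1.5% of all genes tested, and the median log2 difference was -5.41 (-5.43 with genes without reads set to a floor of 3 reads over the group), against 0.0026 over all genes. The RPKM of the lines did not overlap for 47 genes with C2C12-control higher, which 28.6% of all genes tested show.

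All 48 genes were tested, but 24 passed the filter on low counts (at least 2.33 reads per 1000000 in at least 2 wells) through the C2C12-control wells only, and those had to differ. These 24 are among the 33 lower by over 10-fold. Of the 24 that passed in both lines, 23 were lower, 9 of them by over 10-fold, and 1 was higher. Reads are pooled over all mouse cells of a well, so fewer cells with a transcript and less of it in each cell cannot be told apart. The part of Cd14 and of the other leukocyte markers in the difference was not tested. Nothing in the labels says that wells came from separate cultures, and the p-values cover the spread between these 6 wells alone, part of which may be technical.

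**Figure D1:**
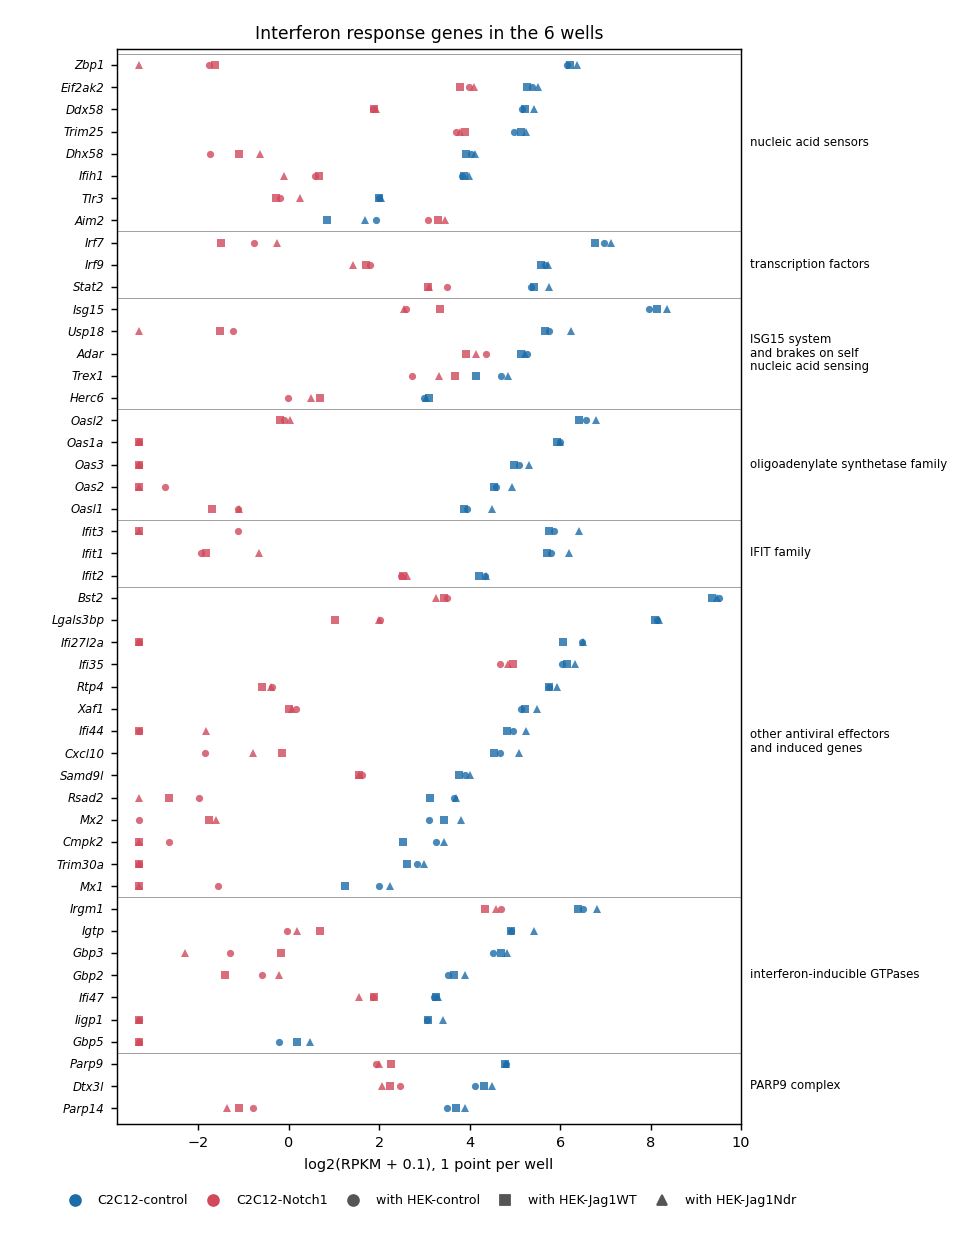
Level of each of the 48 genes in each well, as log2(RPKM + 0.1), grouped by role, with blue for C2C12-control, red for C2C12-Notch1 and a marker shape for the HEK partner. Points at the left edge are wells with no reads, and for all genes but Aim2 the 3 blue points lie to the right of the 3 red ones.

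Sensors of nucleic acid are the first role, with 7 of 8 members lower in C2C12-Notch1. Zbp1, a sensor of Z-form nucleic acid that starts cell death, stood at 71.3, 74.8 and 83.3 RPKM in C2C12-control and at 0.194, 0.223 and 0 in C2C12-Notch1. There 3 reads were left in all (log2 difference -8.48 ± 0.22 SE). Zbp1 passed the filter on low counts through the C2C12-control wells only, so it had to differ. Ddx58, which encodes the RNA sensor RIG-I, stood at 35.7, 37.1 and 42.5 against 3.52, 3.58 and 3.71 RPKM. Ifih1, which encodes MDA5, a sensor of long double-stranded RNA, was at 14.2, 14.6 and 15.7 against 1.39, 1.48 and 0.825 RPKM. So these cytosolic RNA sensors kept reads in C2C12-Notch1, at 9.06% and 8.11% of their C2C12-control level on scaled reads.

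A pair of genes in this role kept far more. Eif2ak2, the kinase PKR that stops translation on double-stranded RNA, stood at 41.2, 38.5 and 45.2 against 15.7, 13.7 and 17.1 RPKM. Trim25, the ubiquitin ligase that activates RIG-I, stood at 31.4, 35.3 and 38.0 against 13.0, 14.7 and 13.7 RPKM. Both were lower by the test, with log2 differences of -1.43 ± 0.07 and -1.36 ± 0.07 SE and no overlap of wells. The endosomal sensor Tlr3 was low in both lines, at 3.88, 3.88 and 4.03 against 0.778, 0.716 and 1.08 RPKM. Dhx58, a helicase that tunes RIG-I and MDA5, went from 16.3, 15.1 and 17.3 RPKM to 0.199, 0.367 and 0.539.

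Aim2, a cytosolic sensor of double-stranded DNA that builds an inflammasome, ran against the other 47 genes. It had 3.73, 1.70 and 3.11 RPKM in C2C12-control and 8.31, 9.70 and 10.9 in C2C12-Notch1, on 36, 19 and 60 reads against 105, 53 and 101. The groups did not overlap, and the log2 difference was 1.73 ± 0.18 SE (edgeR adjusted p 1.66e-12). Aim2 belongs to the PYHIN family, and the other members of that family that were tested, from a wider list given further on, were lower in C2C12-Notch1. Ifi203 was at 46.2 ± 2.00 against 4.32 ± 0.167 RPKM (SD, n = 3), with log2 differences of -3.36 for Ifi203, -1.50 for Ifi204, -1.81 for Mnda and -3.85 for Ifi205. Ifi205, with 58 reads against 2, passed the filter on low counts through the C2C12-control wells only.

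The transcription factors of the pathway split by size. Irf7, the factor that amplifies the type I interferon response, stood at 126, 108 and 140 RPKM in C2C12-control and at 0.491, 0.251 and 0.738 in C2C12-Notch1. That is a log2 difference of -7.89 ± 0.15 SE, with 11 reads left in 3 wells against 3912. Irf7 too passed the filter on low counts through the C2C12-control wells only. Irf9, the DNA-binding partner of STAT2, stood at 50.5, 47.9 and 53.3 against 3.35, 3.15 and 2.57 RPKM. Stat2 was reduced least of the 3, at 40.6, 42.8 and 54.2 against 11.2, 8.39 and 8.48 RPKM (log2 difference -2.28 ± 0.11 SE).

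ISG15 is a ubiquitin-like protein joined to others and cut off again by USP18, which also blocks the type I receptor. Isg15 was among the most abundant of the 48, at 249, 283 and 328 RPKM in C2C12-control, and at 5.90, 10.1 and 5.75 in C2C12-Notch1. Usp18 stood at 53.8, 50.5 and 75.9 against 0.326, 0.250 and 0 RPKM, with 4 reads left in C2C12-Notch1. Herc6, the mouse ligase for ISG15, stood at 7.88, 8.49 and 8.07 against 0.892, 1.51 and 1.31 RPKM. The enzymes that keep a cell's own nucleic acid from being sensed were the least reduced of this role: Adar, which edits double-stranded RNA, stood at 38.2, 35.2 and 37.4 against 20.3, 14.9 and 17.6 RPKM. Trex1, a DNA exonuclease, stood at 25.6, 17.6 and 28.5 against 6.53, 12.6 and 9.94 RPKM. For both the lines still did not overlap, with log2 differences of -1.06 ± 0.06 for Adar and -1.41 ± 0.17 SE for Trex1.

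The oligoadenylate synthetases, enzymes that answer double-stranded RNA by making the activator of RNase L or, in the OAS-like members, act on RIG-I and translation, were the most completely lost role. Its 5 members had 11185 reads in the 3 C2C12-control wells and 40 in the 3 C2C12-Notch1 wells, of which Oasl2 gave 31. Oasl2 stood at 94.4, 85.5 and 110 against 0.828, 0.776 and 0.913 RPKM, and Oasl1 at 15.3, 14.7 and 22.5 against 0.362, 0.208 and 0.367. Oas1a stood at 63.8, 60.7 and 63.4 RPKM and had no read in C2C12-Notch1, so it was at least 201-fold lower. Oas3, with 34.2, 31.2 and 39.9 RPKM on 2755 reads, had none either. Oas2, at 23.8, 23.0 and 30.5 RPKM on 1719 reads, kept 1 read. Oas1a shares sequence with other Oas1 genes, as Mx1 does with Mx2, Ifit3 with its copy and the Gbp genes among themselves, and no source used here says how shared reads were counted.

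The IFIT proteins bind foreign RNA ends or the translation machinery. Ifit1 stood at 55.8, 52.2 and 72.7 RPKM against 0.159, 0.182 and 0.536, and Ifit3 at 58.2, 54.0 and 85.1 against 0.361, 0 and 0. Ifit2 did not share this depth: it stood at 20.1, 18.4 and 20.4 against 5.45, 5.61 and 6.02 RPKM. In reads, Ifit1 kept 8 of 2531, Ifit3 kept 2 of 1237 and Ifit2 kept 249 beside 1268. Neighbours of 1 gene family thus kept 0.458% (95% counting interval 0.197% to 0.903%) for Ifit1 and 28.4% (24.7% to 32.6%) for Ifit2 of the scaled C2C12-control level.

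Other antiviral effectors and induced genes made up 14 of the 48, and all 14 were lower. Bst2, which encodes tetherin, the protein that holds budding virus on the cell, was the most abundant of the 48, at 734, 656 and 710 RPKM, and stood at 11.2, 10.7 and 9.51 in C2C12-Notch1. Lgals3bp, a secreted glycoprotein, was at 284, 275 and 293 against 3.95, 1.94 and 3.90 RPKM. Ifi27l2a, at 89.6, 66.8 and 90.3 RPKM, had no reads in C2C12-Notch1 and was at least 148-fold lower. Bst2 and Lgals3bp, on 8900 and 10277 reads in C2C12-control, had log2 differences of -6.07 ± 0.09 and -6.33 ± 0.09 SE.

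Ifi35, which encodes a partner of the protein NMI, was the exception in this role, at 65.4, 70.7 and 80.1 against 25.4, 31.1 and 28.9 RPKM. Samd9l, an antiviral growth suppressor, was next at 14.8, 13.5 and 16.1 against 2.97, 2.84 and 2.84 RPKM. Xaf1, a partner of the apoptosis inhibitor XIAP, stood at 35.2, 37.1 and 45.1 against 1.02, 0.903 and 0.955 RPKM. Of the remaining members of this role, Rtp4, Ifi44, Cxcl10 (a chemokine for T cells), Rsad2 (viperin), Mx2, Cmpk2 and Mx1 had 56.4 to 3.58 RPKM on average in C2C12-control and kept 12 reads (Rtp4) to 1 read (Cmpk2) over the 3 C2C12-Notch1 wells. Trim30a, at 7.05, 6.05 and 7.84 RPKM in C2C12-control, kept none and was at least 95.3-fold lower.

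Interferon-inducible GTPases attack the vacuoles of intracellular parasites and bacteria, and all 7 were lower. Irgm1, a regulator of the family, stood at 90.8, 83.6 and 112 against 25.8, 20.2 and 24.0 RPKM, and Ifi47 at 9.09, 9.40 and 9.81 against 3.55, 3.60 and 2.85. The others kept far less. Igtp stood at 29.8, 30.1 and 42.7 against 0.879, 1.52 and 1.04 RPKM, Gbp3 at 22.8, 25.8 and 28.2 against 0.305, 0.791 and 0.103, and Gbp2 at 11.3, 12.5 and 14.7 against 0.559, 0.276 and 0.756. Iigp1 (8.25, 8.32 and 10.5 RPKM) and Gbp5 (0.763, 1.02 and 1.29 RPKM on 54 reads) had no reads in C2C12-Notch1, and were at least 100.3-fold and 12.4-fold lower.

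Parp9 and Dtx3l encode the partners of an ADP-ribosylating and ubiquitin-ligating complex, and Parp14 lies beside them in function. Parp9 stood at 27.7, 27.2 and 28.0 against 3.72, 4.66 and 3.87 RPKM. Dtx3l stood at 17.3, 19.8 and 22.4 against 5.37, 4.65 and 4.07 RPKM. Parp14 stood at 11.2, 12.9 and 14.8 against 0.477, 0.366 and 0.287 RPKM, a larger step, with 2.87% of the C2C12-control level left where Dtx3l kept 23.2% and Parp9 14.2%.

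Over the 48 genes, the share of the C2C12-control level that was left in C2C12-Notch1 was anything but uniform. It was under 1% for 15 genes, 1% to 10% for 18, 10% to 100% for 14 and over 100% for Aim2, with a median of 2.32% (2.25% on the deposited RPKM). The 14 genes that kept at least 10% were, from the top, Adar at 49.0% (95% counting interval 45.9% to 52.3%), Trim25, Ifi35, Eif2ak2, Trex1, Ifi47, Ifit2, Irgm1, Dtx3l, Tlr3, Stat2, Samd9l, Herc6 and Parp9. Trim25, Ifi35, Eif2ak2 and Trex1 lay between 37.6% and 36.5%, within each other's counting intervals. At the other end, Oas3 with no read out of 2755 in C2C12-control was at least 634-fold lower, while Bst2 kept 1.5% (1.21% to 1.84%). A floor of 3 reads for Oas3 is 0.158%, under the lower bound for Bst2, so even the strongly reduced genes were not scaled by 1 ratio.

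**Figure D2:**
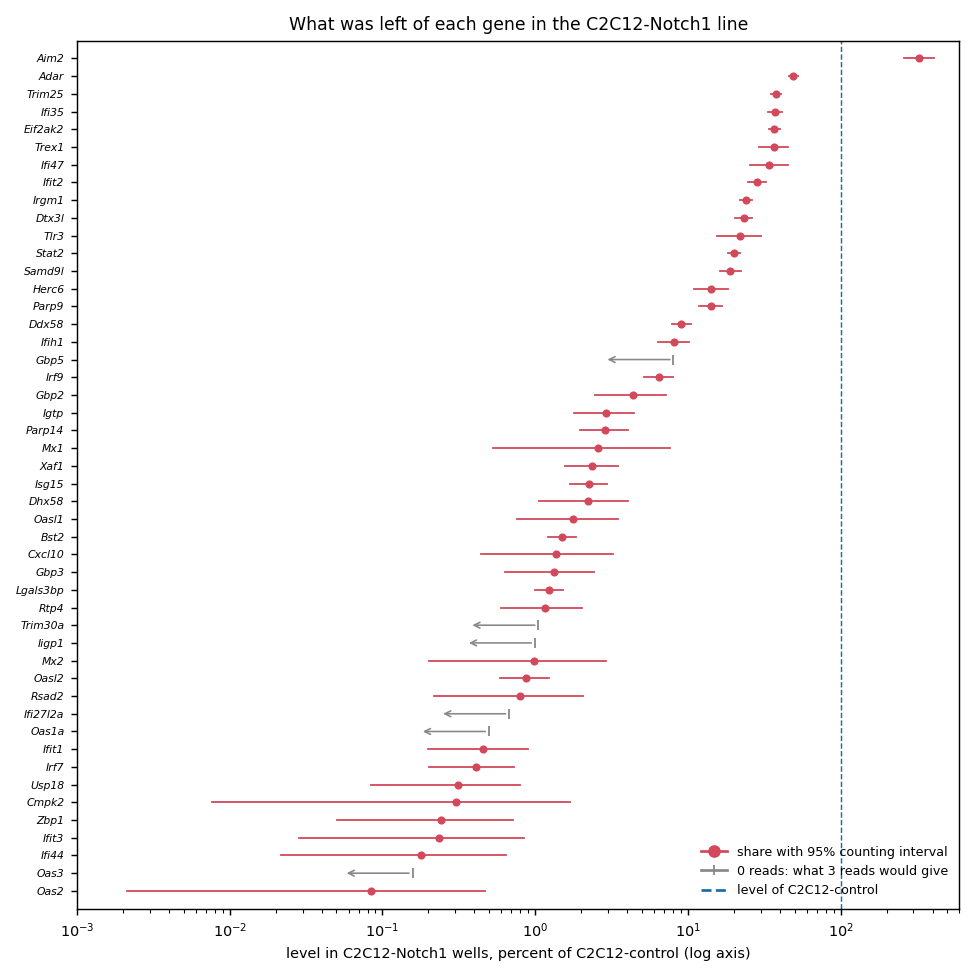
Level of each gene in the C2C12-Notch1 wells as a percent of its C2C12-control level, from scaled reads summed over 3 wells per line, on a log axis, with 95% counting intervals. Grey marks are genes with no reads, drawn at what 3 reads would give, and the dashed line at 100% is the C2C12-control level, which Aim2 alone exceeded.

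In absolute terms, the 48 genes had 91109 reads in the C2C12-control wells and 6443 in the C2C12-Notch1 wells. Adar, Trim25, Eif2ak2, Irgm1, Stat2 and Ifi35 gave 66.1% of those 6443. In C2C12-Notch1, 24 genes had 10 or more reads in some well, 18 had 1 to 9 at most, and 6 (Oas1a, Oas3, Ifi27l2a, Trim30a, Iigp1 and Gbp5) had none in any well. Of all genes tested 0.37% had no read in any C2C12-Notch1 well. For 7 genes 1 to 3 reads in all were left, so their residual level is known only to within a wide counting interval, such as 0.00213% to 0.47% for Oas2.

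The human cells in the same wells also expressed many of these genes, and 39 of the 48 genes have a human gene of the same name in the human table. Human IFIT1 had 41818 reads in the 3 C2C12-Notch1 wells, where mouse Ifit1 had 8, or 0.0191 mouse reads per 100 human reads. Human IFIT3 had 29522 reads there and mouse Ifit3 had 2, or 0.00677 per 100. In the same wells human ISG15 had 6713 reads and mouse Isg15 54, or 0.804 per 100. The opposite also occurred: ZBP1, XAF1, RTP4 and AIM2 had no read in the human table in any well, while mouse Zbp1, Xaf1 and Rtp4 had 1786, 1647 and 1498 reads in the C2C12-control wells. No source used here says how reads were assigned to a species, and its part in the few residual reads was not tested.

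Levels in the C2C12-Notch1 wells can be set beside the human ones for the genes with enough mouse reads. Human IFIT2 stood at 441, 314 and 1052 RPKM in the C2C12-Notch1 wells, highest beside HEK-Jag1Ndr, while mouse Ifit2 stood at 5.45, 5.61 and 6.02. Mouse Ifit2 had 21.1, 21.6 and 23.4 reads per 1000000 mouse reads there, and the 95% Poisson intervals of the 3 wells overlap. Human STAT2 stood at 7.86, 4.51 and 5.92 RPKM and mouse Stat2 at 11.2, 8.39 and 8.48, in the same order. Human EIF2AK2 stood at 35.2, 27.3 and 34.8 RPKM and mouse Eif2ak2 at 15.7, 13.7 and 17.1, both lowest beside HEK-Jag1WT. Human ADAR, at 86.5, 83.5 and 83.7 RPKM, and mouse Adar, at 20.3, 14.9 and 17.6, also shared their order, though human ADAR was nearly level. Others did not share it. Human TRIM25, at 42.2, 24.9 and 28.7 RPKM, had the reverse order of mouse Trim25, at 13.0, 14.7 and 13.7. Human DTX3L stood at 9.98, 9.18 and 11.1 RPKM and mouse Dtx3l at 5.37, 4.65 and 4.07. Human IFI35 stood at 1.06, 1.13 and 1.70 RPKM and mouse Ifi35 at 25.4, 31.1 and 28.9.

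Genes around the 48 were read from lists of the wider pathway. Of 12 interferon genes in the mouse table, among them Ifnb1, Ifng and 6 Ifna genes, none had more than 1 read in a well, with 4 reads in the C2C12-control wells and 1 in the C2C12-Notch1 wells over all 12. With the receptors the list has 21 names, 18 in the table and 5 tested, all receptor chains, of which 4 were lower and none higher in C2C12-Notch1. Among all genes tested 29.4% were lower and 28.4% higher. Ifnar1 and Ifnar2, the chains of the type I receptor, stood at 27.7 ± 0.801 against 20.4 ± 0.709 and at 35.1 ± 1.41 against 26.8 ± 2.31 RPKM (SD, n = 3), log2 differences of -0.45 and -0.31. Ifngr2 differed by -0.52 and Il10rb by -1.19, while Ifngr1, at 34.0 against 37.8 RPKM, was not called (edgeR adjusted p 0.0981). The median log2 difference of the 5 receptor chains was -0.45, against -5.41 for the 48 genes, though Il10rb differed by more than Adar did.

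Downstream of the receptors, 6 of 13 tested signal transduction genes were lower and 1 higher, where 29.4% of all genes tested were lower and 28.4% higher. Ptpn11, a phosphatase, was the most abundant and differed by -0.13. Jak1, at 58.9, 67.1 and 63.0 against 60.8, 58.4 and 58.2 RPKM, was not called (adjusted p 0.103). Tyk2, the kinase on the type I receptor, differed by -0.86 and the factor Stat3 by -0.54. Crebbp, a coactivator, was the gene that was higher, by 0.49. The genes named here do not span the range of the list. Interferon regulatory factors outside the 48 had 3 of 7 lower and 1 higher, beside the same shares of all genes. Irf1 differed by -0.65, Irf3 by -0.37, Irf5 by -2.39 and Irf2bp1 by 0.26. Irf5, with 143 reads against 19, passed the filter on low counts through the C2C12-control wells only. Irf2bpl and Irf2bp2, the other abundant members, were not called.

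Adaptors and kinases of nucleic acid sensing were mixed, with 9 of 21 tested lower and 7 higher, where 29.4% of all genes were lower and 28.4% higher. The cytosolic DNA pathway held both signs: Tmem173, which encodes the adaptor STING, stood at 14.8, 14.3 and 15.2 against 4.34, 5.48 and 5.09 RPKM, and Mb21d1, which encodes the DNA sensor cGAS, at 3.51, 3.99 and 4.35 against 7.93, 9.10 and 8.07. Their log2 differences were -1.61 ± 0.14 and 1.04 ± 0.12 SE. Aim2, another DNA sensor, was higher as well, while Ddx41 of this list (-0.56) and the Z-form sensor Zbp1 were lower. G3bp1 (0.56), Dhx9 (0.23), Dhx36 (0.41), Tank (0.27), Traf6 (0.25) and Mavs (0.17), the adaptor of the RNA sensors, were the other genes that were higher. Ticam1, the adaptor of TLR3, differed by -0.59.

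A further list of 71 interferon-stimulated genes outside the 48 had 65 in the table and 53 tested, of which 48 were lower, 2 higher and 3 not called, with a median log2 difference of -1.93. Of all genes tested 29.4% were lower and 28.4% higher. The list was chosen with earlier results of these data known. Part of it passed the filter on low counts through the C2C12-control wells only and had to differ. Examples are Oas1b, Oas1g, Sp100 and Psmb9, with 0 or 1 read over the C2C12-Notch1 wells. B2m, the light chain of MHC class I, stood at 1385, 1317 and 1376 against 385, 386 and 395 RPKM, and Ifitm3, which blocks viral entry, at 1264, 1156 and 1361 against 249, 232 and 248. Apol9b, a close copy of Apol9a, stood at 253, 253 and 295 against 88.5, 73.8 and 101 RPKM. These abundant genes kept a larger share than most of the 48. Ifi30, a lysosomal thiol reductase, was higher by 0.20 and the GTPase gene Gbp9 by 1.03, the latter on 29 reads against 44. Oas1b and Oas1g had no reads in C2C12-Notch1, like Oas1a.

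The second question is how the 48 genes responded to the ligand that the HEK cells presented. In C2C12-control, where they are expressed, each partner rests on 1 well, so the ratios between wells carry counting intervals only and no test. Of the 48 genes 45 had at least 100 reads in 1 of the 3 wells and are compared, beside 9073 genes that meet the same minimum. The genes were slightly but nearly uniformly higher beside HEK-Jag1Ndr: 43 of 45 had a log2 ratio above 0 against the HEK-control well, with a median of 0.24, where 49.4% of all genes were above 0 with a median of -0.0018. Beside HEK-Jag1WT the same genes were spread around 0, with 21 of 45 above it and a median of -0.03, where 50.3% of all genes were above 0. The HEK-Jag1Ndr well of this line is also the deepest, at 7965231 reads against 3983213 and 4613336, and its part in the shift was not tested.

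**Figure D3:**
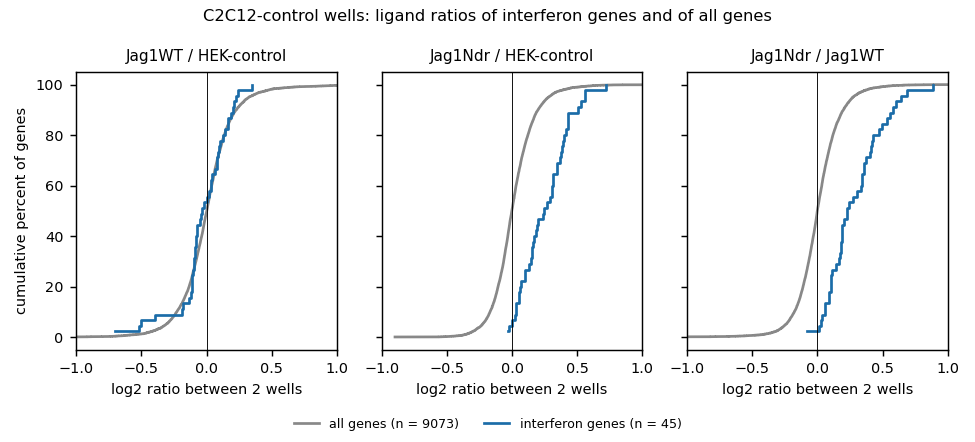
Cumulative percent of genes against the log2 ratio between 2 C2C12-control wells, for all 9073 genes at or above 100 reads (grey) and the 45 interferon response genes that meet this minimum (blue). The blue curve lies on the grey one for HEK-Jag1WT against HEK-control and to its right in both panels with HEK-Jag1Ndr, where its medians are 0.24 and 0.22.

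Against the HEK-control well, 16 of the 45 genes had a log2 ratio over 0.32 beside HEK-Jag1Ndr, the fold used here to count genes, and none was lower by that much, where 3.43% of all genes were higher and 1.63% lower. The counting interval lay above 0 for 26 of the 45 genes and below 0 for none. It covers counting error only, and the same share over all 9073 genes is not given here, so this count has nothing to be set beside. The 5 with the largest ratios came from separate roles. Mx2, an antiviral GTPase, had 8.47, 10.7 and 13.9 RPKM, a log2 ratio of 0.72 (95% counting interval 0.35 to 1.11) beside HEK-Jag1Ndr. Oasl1 had 0.56 (0.28 to 0.87), Ifit3 0.56 (0.35 to 0.77), Igtp 0.53 (0.30 to 0.77) and Usp18 0.51 (0.34 to 0.68). Of the 5 genes with the tightest intervals, Oasl2 at 0.24 (0.14 to 0.34) and Irf7 at 0.15 (0.04 to 0.27) lay above 0, while the intervals of Lgals3bp at 0.06 (-0.0078 to 0.13), Bst2 at -0.03 (-0.11 to 0.04) and Adar at -0.02 (-0.14 to 0.09) include 0. By role, the median ratio ran from 0.15 for the transcription factors and 0.16 for the sensors to 0.39 for the PARP9 complex and 0.40 for the IFIT genes.

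Against the HEK-control well, 1 gene was higher by over 0.32 beside HEK-Jag1WT and 4 were lower by as much, where 5.1% of all genes were higher and 4.61% lower, so the counts are near those of all genes. The 4 were Cmpk2, a mitochondrial nucleotide kinase (9.47, 5.70 and 10.7 RPKM, log2 ratio -0.70, interval -1.13 to -0.30), Trex1 (-0.52), Rsad2 (-0.51) and Ifi27l2a (-0.40). Rsad2 and Cmpk2 are neighbouring genes that are induced together, and Rsad2 stood at 12.5, 8.63 and 12.8 RPKM. The gene that was higher, Mx2, had a ratio of 0.35 whose interval, -0.08 to 0.79, includes 0.

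**Figure D4:**
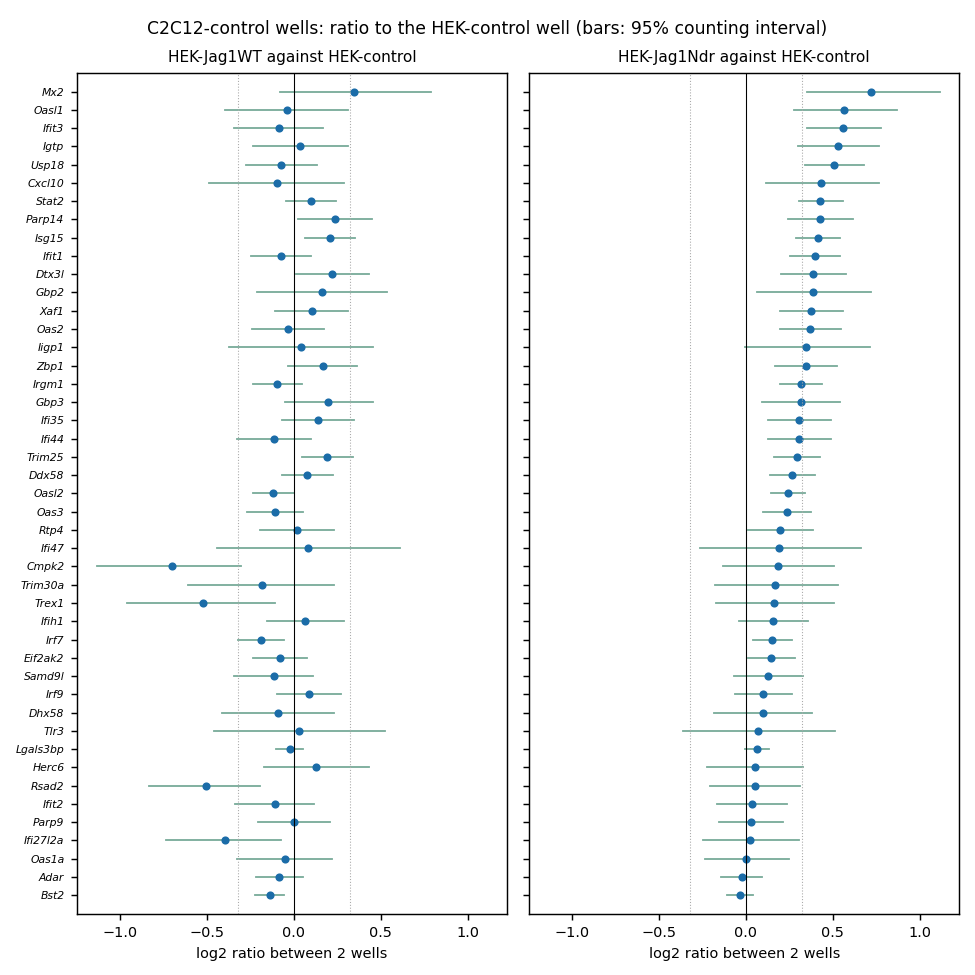
Log2 ratio of each of the 45 genes between the C2C12-control well with HEK-Jag1WT (left) or HEK-Jag1Ndr (right) and the one with HEK-control, in the order of the right panel. Bars are 95% counting intervals and dotted lines mark log2 ratios of 0.32 either way. On the right 43 of 45 points lie above 0, and on the left 21 do.

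Set directly against each other, the HEK-Jag1Ndr well was above the HEK-Jag1WT well for 44 of 45 genes, a median log2 ratio of 0.22, with 19 genes higher by over 0.32 and none lower by as much, where 3.24% of all genes were higher and 2.17% lower. Herc6 was the gene below 0, at -0.08. The largest ratios were those of Cmpk2 at 0.89 (0.54 to 1.27), Trex1 at 0.69 (0.33 to 1.07), Ifit3 at 0.64 (0.44 to 0.86), Oasl1 at 0.60 (0.33 to 0.90) and Usp18 at 0.58 (0.42 to 0.75). Each of these 3 comparisons shares a well with the other two, so they are no independent views of the response. For the OAS family, 4 of 5 genes were higher by over 0.32, all but Oas1a, which stood at 60.7 beside HEK-Jag1WT and 63.4 beside HEK-Jag1Ndr.

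In C2C12-Notch1, only 9 of the 48 genes had 100 reads in a well, so the response of the other 39 could not be read there. Of these 9, 1 was higher by over 0.32 and 2 lower beside HEK-Jag1WT (5.97% and 7.1% of 8127 genes), 1 higher and 2 lower beside HEK-Jag1Ndr (2.37% and 3.52%), and none either way between the Jag1 lines (5.01% and 5.16%). Stat2 had 11.2, 8.39 and 8.48 RPKM, a log2 ratio of -0.36 beside HEK-Jag1Ndr, and Adar 20.3, 14.9 and 17.6. Aim2 had a ratio of 0.41 (0.01 to 0.83) beside HEK-Jag1Ndr. Whether the response to a ligand differs between the C2C12 lines cannot be tested, since 1 well per combination leaves no spread for that term.

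The additive fit over both C2C12 lines takes the pair of wells per HEK line as replicates, 3 comparisons in all. Beside HEK-Jag1Ndr, against HEK-control, 5 of the 48 genes were higher and none lower (edgeR quasi-likelihood, Benjamini-Hochberg over all genes), where 0.431% of all genes were higher and 0.0968% lower. They were Isg15 (log2 difference 0.40 ± 0.09 SE, adjusted p 0.0194), Usp18 (0.50 ± 0.11, 0.0133), Ifit1 (0.41 ± 0.10, 0.0354), Ifit3 (0.55 ± 0.12, 0.0134) and Igtp (0.53 ± 0.13, 0.0262). Isg15 stood at 5.90 beside HEK-control and 5.75 RPKM beside HEK-Jag1Ndr in C2C12-Notch1, and Usp18, Ifit1 and Ifit3 had 0 to 5 reads per well there, so these calls rest on the C2C12-control wells. No member was called when the C2C12-control well beside HEK-control was left out, or the one beside HEK-Jag1Ndr. DESeq2 and limma on log2(RPKM + 0.1) also called none, with 1 and 4 genes at an unadjusted p under 0.05, all higher, against 22 by edgeR.

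Between the Jag1 lines, 13 of the 48 genes were higher beside HEK-Jag1Ndr than beside HEK-Jag1WT and none lower, where 0.686% of all genes were higher and 1.35% lower. They were the factor Irf7 (log2 difference 0.35), Usp18 (0.57), the synthetases Oas2 (0.40), Oas3 (0.34), Oasl1 (0.61) and Oasl2 (0.36), Ifit1 (0.48), Ifit3 (0.65), Rsad2 (0.55), Cmpk2 (0.90), Ifi44 (0.43), and the GTPases Igtp (0.47) and Irgm1 (0.37). The edgeR adjusted p ran from 0.000332 for Ifit3 to 0.0461 for Oas3. In C2C12-Notch1, all of the 13 but Oasl2, Igtp and Irgm1 had 0 to 5 reads per well, so their calls rest on the C2C12-control wells, 1 per HEK line. There Oasl2 had 14, 6 and 11 reads and Igtp 8, 6 and 7. Irgm1 had 296, 101 and 203 reads, at 20.2 RPKM beside HEK-Jag1WT and 24.0 beside HEK-Jag1Ndr. The count fell to 0 when the C2C12-control well beside HEK-Jag1WT was left out, or the one beside HEK-Jag1Ndr. DESeq2 and limma on log2(RPKM + 0.1) called none, with 3 and 8 genes at an unadjusted p under 0.05, all higher, against 21 by edgeR. Of all 11365 genes tested, 251 by DESeq2, 950 by that limma fit and 1090 by edgeR had such a p, in either direction.

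Beside HEK-Jag1WT, against HEK-control, 1 gene was called lower, Cmpk2, at -0.72 ± 0.22 SE on the log2 scale (edgeR adjusted p 0.0383), and none was higher, where 2.7% of all genes were higher and 1.76% lower. At an unadjusted p under 0.05, edgeR had 2 genes higher and 6 lower, and DESeq2 none. Of all 11365 genes tested, 1543 by edgeR and 491 by DESeq2 had such a p, in either direction. Cmpk2 kept 1 read in the 3 C2C12-Notch1 wells, so its call too rests on the C2C12-control wells. It was lost when any of these was left out, with an adjusted p of 0.583 lacking the one beside HEK-control, 0.913 lacking HEK-Jag1WT and 0.0576 lacking HEK-Jag1Ndr by edgeR, and also when the C2C12-Notch1 well beside HEK-Jag1WT was left out (0.0573).

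One gene of the wider pathway responded in another pattern. Samhd1, which encodes a nucleotide hydrolase that restricts retroviruses, stood at 49.99, 74.4 and 66.3 RPKM in C2C12-control and at 34.9, 50.8 and 39.7 in C2C12-Notch1, highest beside HEK-Jag1WT in both lines. Its log2 difference was 0.58 ± 0.07 beside HEK-Jag1WT (edgeR adjusted p 6.06e-09), 0.34 ± 0.07 SE beside HEK-Jag1Ndr (0.00263) and -0.25 ± 0.07 between the latter and the former (0.029). Of the other 4 pathway lists, Tyk2 was lower beside HEK-Jag1WT (-0.43, adjusted p 0.0096) and Apol9b was higher beside HEK-Jag1Ndr than beside HEK-Jag1WT (0.28, adjusted p 0.0431), and no other gene was called in a ligand comparison.

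Human genes of the same name moved in the same wells. RPKM of human IFIT1 was 278, 116 and 394 in the C2C12-control wells and 431, 213 and 624 in the C2C12-Notch1 wells, lowest beside HEK-Jag1WT and highest beside HEK-Jag1Ndr in both. Human RSAD2 stood at 3.28, 0.649 and 17.2, and at 4.56, 0.486 and 28.5. Mouse Ifit1 in C2C12-control, at 55.8, 52.2 and 72.7 RPKM, had the same order in a far narrower range, and mouse Rsad2 had 12.5, 8.63 and 12.8. Human USP18, at 29.8, 24.6 and 30.4 RPKM beside C2C12-control, had the order of mouse Usp18, at 53.8, 50.5 and 75.9. Human STAT2 did not share the order of its mouse gene there, at 8.04, 6.66 and 7.04 RPKM against 40.6, 42.8 and 54.2 for mouse Stat2. The part of the human response, or of human reads, in the mouse values was not tested.

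**Figure D5:**
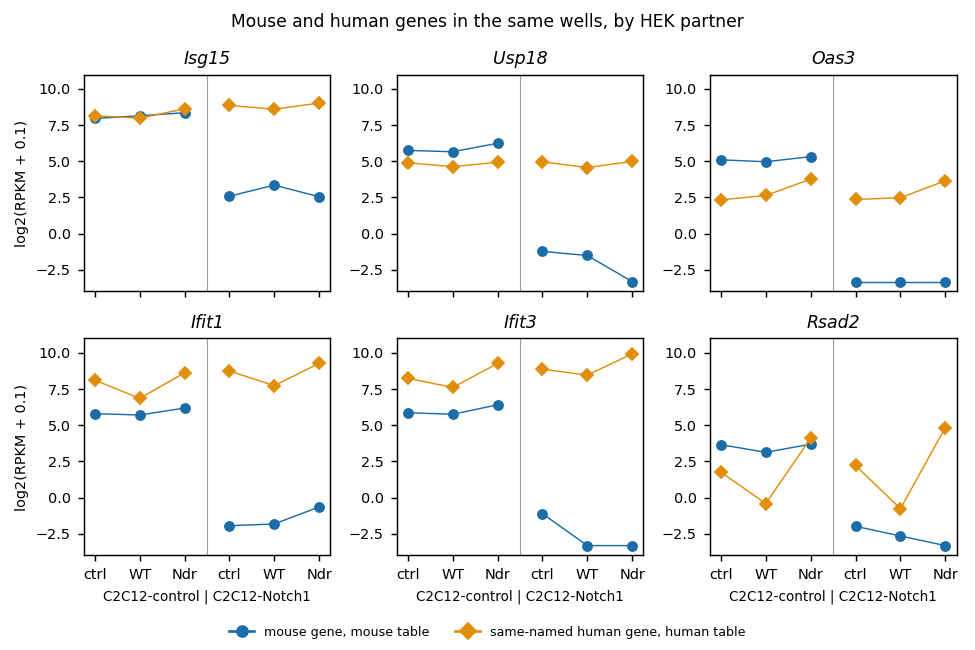
Log2(RPKM + 0.1) of 6 mouse genes called in the ligand comparisons (blue circles, mouse table) and of the human genes of the same name (orange diamonds, human table) in the 6 wells, by HEK partner and C2C12 line. Mouse levels differ mainly between the C2C12 lines, and human levels of Ifit1, Ifit3 and Rsad2 are lowest beside HEK-Jag1WT and highest beside HEK-Jag1Ndr in both.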

How the data were processed

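Libraries of polyA RNA came from a TruSeq kit, which keeps no strand, per the labels' protocols. The submitters' processing notes name STAR, mm9 and hg19. What counted the reads and parted the species is not given in the sources used here. Values deposited by the authors were whole-number read counts and RPKM per RefSeq gene and well, in a mouse and a human table, per the file headers. Of 23905 mouse entries, 472 exact repeats were left out (448 of 24303 human).

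The members and lists were chosen with earlier results of these data known. Wells with a line in common stood in as replicates (3 per C2C12 line, 2 per HEK line) in an additive edgeR 4.0.16 quasi-likelihood fit in R 4.3.3, with TMM, filterByExpr, 2 residual degrees of freedom and Benjamini-Hochberg adjustment at 0.05 over all genes. The common biological coefficient of variation was 3.89%. Single-well ratios used TMM, a prior count of 2 and exact conditional 95% counting intervals. A gene without reads in a line was given a floor of 3 reads over its 3 wells. Residual shares compare TMM-scaled reads summed over 3 wells per line. Intervals and floors cover counting error only. Alternatives were DESeq2 1.42.0, limma 3.58.1 on log2(RPKM + 0.1) and log2(RPKM + 1), library size only, no filter, no HEK term and leaving out each well. The fit was tested on simulated data. Named genes were all members, the up to 4 most abundant of each role per well, those with 10 or more reads in a C2C12-Notch1 well, those called, the 5 largest single-well ratios, and from each wider list the up to 3 most abundant and any that ran against it. Other list genes were named after their values were seen. Promoters and genome positions were not analysed here, and 1 gene of the signal transduction list is not reported by name.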

Additional observations from a re-analysis of the deposited data

Results flagged for a closer look

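Stat2, the partner of IRF9, had opposite single-well ratios between HEK-Jag1Ndr and HEK-control in the C2C12 lines. The log2 ratio was 0.43 in C2C12-control (702 and 1869 reads, 95% counting interval 0.30 to 0.56) and -0.36 in C2C12-Notch1 (252 and 141 reads, -0.67 to -0.06). Beside HEK-Jag1WT, against HEK-control, it was 0.10 in C2C12-control (-0.05 to 0.24) and also -0.36 in C2C12-Notch1 (-0.75 to -0.004). Between the Jag1 lines Stat2 was level in C2C12-Notch1, at 0.0048, so the low ratio there was not particular to HEK-Jag1Ndr. The difference between the lines was not tested, because each combination has 1 well.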

How the results depend on the processing

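The line comparison called all of its members under each alternative in which they were tested, 575 fits of single genes, with the same direction each time. Without a HEK term 47 members were tested and 46 were lower. DESeq2 called 3585 of all genes instead of 6569. The ligand calls were fragile. For HEK-Jag1WT against HEK-control, 507 genes in all became 151 by DESeq2, 130 and 149 by limma on log2(RPKM + 0.1) and log2(RPKM + 1), and 303 to 580 when 1 well was left out. For HEK-Jag1Ndr against HEK-control, 60 became 7 by DESeq2, 1 and 1 by limma, 91 without a filter and 40 to 84 with 1 well left out. For HEK-Jag1Ndr against HEK-Jag1WT, 231 became 37 by DESeq2, 6 and 5 by limma, and 138 to 313 with 1 well left out. Members called were 0 by DESeq2 and by both limma fits in all 3 comparisons, and 0 to 2, 0 to 9 and 0 to 15 with 1 well left out. With library size only, the share of all calls that were higher was 47.1% instead of 60.6% for HEK-Jag1WT and 69.2% instead of 81.7% for HEK-Jag1Ndr, and it moved by less than 10 percentage points between the Jag1 lines.

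Against HEK-control, the HEK-Jag1Ndr difference of Usp18 turned to -0.30 by DESeq2 and to -0.798 by limma on log2(RPKM + 0.1), and that of Ifit3 to -0.83 by that limma fit. Between the Jag1 lines, Usp18 turned to -0.0024 by DESeq2 and to -0.61, and Rsad2 to -0.0494, by that limma fit. With 1 well left out, the HEK-Jag1Ndr difference from HEK-control ran from -0.19 to 0.43 for Isg15, from -4.18 to 0.51 for Usp18, from -3.73 to 0.56 for Ifit3 and from -0.0013 to 0.66 for Igtp. Between the Jag1 lines it ran from -4.11 to 0.58 for Usp18, from -2.36 to 2.54 for Oas2, from -3.17 to 3.49 for Ifit3, from -3.79 to 0.56 for Rsad2, from -1.84 to 2.44 for Cmpk2 and from -0.42 to 0.49 for Igtp. Leaving out a C2C12-control well leaves the few reads of C2C12-Notch1 to decide. Adjusted p over the alternatives reached from 1.92e-06 to 1.

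Of the single-well counts in C2C12-control, the 1 gene higher beside HEK-Jag1WT became 0 with library size only, at 1.5-fold and with at least 500 reads, and the 4 lower became 1 at 1.5-fold and 0 with at least 500 reads. At 1.5-fold, 1 gene stayed over the fold for HEK-Jag1Ndr against HEK-control and 4 against HEK-Jag1WT, the latter 11 with at least 500 reads. In C2C12-Notch1 the HEK-Jag1Ndr median turned to -0.15 with at least 500 reads. No paired analysis was possible because each combination of lines has 1 well, so no replicate number can pair wells beyond the HEK partner, which the line comparison already holds as a term. In the C2C12-Notch1 wells 39 of 48 genes had under 100 reads in every well, which limits their ligand ratios, although the wells' totals overlap with those of C2C12-control.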
